A study of Mus musculus with 2 samples.

Results

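A set of 8 genes of cortical inhibitory interneurons was read in laser-capture RNA-seq libraries from the subventricular zone (SVZ) and the cortex of the mouse brain at embryonic day 16.5. They were Gad1, Gad2, Slc32a1, Sst, Npy, Calb2, Erbb4 and Maf, taken by symbol from the 24411 genes listed. Their summed level differed between the libraries, with 5503 reads or 107 CPM in SVZ and 10412 reads or 472 CPM in cortex. That difference came from Npy: without it the sums were 92.7 CPM in SVZ and 93.3 CPM in cortex. CPM is reads per 1000000 reads assigned to genes. Npy was 26.6-fold and Sst 2.78-fold higher in cortex, whereas Gad1 and Gad2 were 1.39-fold and 1.30-fold higher in SVZ and Erbb4 was 4.03-fold higher there.

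Cortical interneurons release GABA, the main inhibitory transmitter of the brain. They are born outside the cortex, in the ganglionic eminences of the ventral forebrain, and reach it by tangential migration along routes that run through the germinal layers and the superficial layers. On the way and after arrival they take up subtype features, among them peptides such as somatostatin and neuropeptide Y and calcium-binding proteins such as calretinin.

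The libraries came from fresh-frozen brains. Sections were stained with haematoxylin and eosin, and pieces of each area, chosen to match the places illuminated in the study's barcoding experiment, were cut out by laser and collected for RNA extraction. Both groups are embryonic day 16.5 brain, the labels name no treatment, and the groups differ in the labelled area, Subventricular zone or Cortex. There was 1 library for each area, so no difference given here has a replicate check and no test between areas was possible. Strain, sex and the number of animals and pieces were not stated in the sources read. All intervals are exact 95% intervals of read counts. PCR copies cannot be told from separate molecules, so the intervals hold counting error alone and no difference between embryos or dissections.

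Gene-assigned reads numbered 51435667 in SVZ and 22050693 in cortex, so that 1 read stood for 0.0194 and 0.0453 CPM. The areas were checked against markers. All 12 neural progenitor genes listed were higher in SVZ, with summed levels of 7262 CPM there and 193 CPM in cortex. Of 10 projection neuron genes, 9 were higher in cortex, with 2630 CPM in SVZ and 6221 CPM in cortex. Among the 12738 genes that averaged at least 1 CPM, the log2 of SVZ CPM over cortex CPM (log2 ratio) had a median of 0.11 and quartiles of -0.56 and 0.76. Of these genes, 54.9% were higher in SVZ.

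To show the sequence next to the start of the genes that the results turn on, the promoter windows of the paired GABA-synthesis genes and of the paired peptide genes were read from RefSeq on GRCm38.p6, from 250 bases before to 50 bases after the start annotated there. The windows of 6 of the 8 genes were used. Those of Calb2 and Maf were not analysed here. Each is written 5′ to 3′ on the strand of the gene. Capitals mark any of 5 motifs searched on both strands: the cAMP response element TGACGTCA, the TATA box TATAAA, the homeodomain core TAATTA, the Maf half-site TGCTGA and the GC box GGGCGG. The Sst window lies at chr16:23890795-23891094 on the minus strand, Npy at chr6:49822460-49822759, Gad1 at chr2:70561879-70562178 and Gad2 at chr2:22622077-22622376, the last 3 on the plus strand. The Gad1 window lies inside the gene span of 70553072 to 70602014 given below from GENCODE M21. Its RefSeq start is thus downstream of the start of that span. Starts of the other genes can also differ between these sources.
Sst: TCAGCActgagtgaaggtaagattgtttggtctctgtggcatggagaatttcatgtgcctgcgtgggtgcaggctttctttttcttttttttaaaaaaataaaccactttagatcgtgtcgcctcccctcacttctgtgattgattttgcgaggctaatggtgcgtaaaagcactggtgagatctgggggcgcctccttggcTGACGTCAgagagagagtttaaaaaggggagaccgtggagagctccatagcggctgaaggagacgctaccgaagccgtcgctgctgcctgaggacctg
Npy: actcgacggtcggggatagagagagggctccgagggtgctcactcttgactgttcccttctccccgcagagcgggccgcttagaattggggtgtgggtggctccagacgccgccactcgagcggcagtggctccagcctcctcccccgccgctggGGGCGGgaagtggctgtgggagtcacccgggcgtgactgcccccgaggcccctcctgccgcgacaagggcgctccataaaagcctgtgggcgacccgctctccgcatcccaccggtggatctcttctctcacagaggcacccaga
Gad1: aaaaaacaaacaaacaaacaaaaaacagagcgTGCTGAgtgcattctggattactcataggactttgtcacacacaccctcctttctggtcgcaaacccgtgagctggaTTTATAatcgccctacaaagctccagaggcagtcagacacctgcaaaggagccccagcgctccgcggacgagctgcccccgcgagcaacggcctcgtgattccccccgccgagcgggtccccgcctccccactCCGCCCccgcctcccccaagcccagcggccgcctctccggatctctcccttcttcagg
Gad2: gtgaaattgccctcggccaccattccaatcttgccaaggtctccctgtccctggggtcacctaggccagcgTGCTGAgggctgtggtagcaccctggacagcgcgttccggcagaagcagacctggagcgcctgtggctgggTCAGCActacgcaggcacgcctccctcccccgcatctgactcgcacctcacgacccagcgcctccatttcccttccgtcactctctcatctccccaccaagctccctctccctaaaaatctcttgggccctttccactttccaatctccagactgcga

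The cAMP response element stood in the Sst window, beginning 48 bases before the start, and in none of the other 5 windows of these genes. It was found in 1.79% of 32851 windows of the same length. The Maf half-site was present in the Gad1, Gad2 and Sst windows and in 19.5% of all windows. The GC box was present in the Gad1 and Npy windows and in 35.7% of all windows. The TATA box letters occurred in Gad1 alone of the 6, on the opposite strand, and in 13.6% of all windows, and the homeodomain core occurred in 0 of the 6 and in 5.29% of all windows. The share of G and C was 68.0% in the Npy window and 50.3% in the Sst window, beside a median of 52.7% over all windows. The 4 windows printed differ in these letters, and a match is a description of the sequence, not of binding.

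The GABA machinery was compared first. Gad1 and Gad2 encode the enzymes that make GABA from glutamate, Gad1 the one found throughout the cell and Gad2 the one concentrated at nerve endings, and Slc32a1 encodes the transporter that loads GABA into vesicles. Gad1 (GRCm38 chromosome 2, 70553072 to 70602014, plus strand) had 853 reads in SVZ and 263 in cortex, or 16.6 CPM (interval 15.5 to 17.7) and 11.9 CPM (10.5 to 13.5). Its log2 ratio was 0.48 (0.27 to 0.68). Gad2 (chromosome 2, 22622205 to 22693874, plus strand) had 1443 and 477 reads, or 28.1 CPM (26.6 to 29.5) and 21.6 CPM (19.7 to 23.7). Its log2 ratio was 0.38 (0.22 to 0.53). Both synthesis genes were slightly higher in SVZ, beyond counting error, at ratios between the quartiles of all genes. In bulk tissue, fewer cells of a type and less RNA per cell cannot be told apart.

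The balance of the synthesis genes was the same within counting error. Gad1 made up 37.2% (35.2 to 39.2) of the Gad1 and Gad2 reads in SVZ and 35.5% (32.1 to 39.1) in cortex. This share does not depend on the library totals. Slc32a1 (chromosome 2, 158610767 to 158615748, plus strand) was close to the limit of detection, with 33 reads in SVZ and 5 in cortex. These are 0.642 CPM (0.442 to 0.901) and 0.227 CPM (0.0736 to 0.529). Its log2 ratio was 1.50 (0.13 to 3.21), and its mean of 0.434 CPM lay under the minimum of 1 CPM, so it entered no count of differing genes. Part of its exons, 24.9% of their length in GENCODE M21, overlaps exons of Gm14205, a gene not listed in the counts, and the library keeps no strand that would separate them.

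**Figure D1:**
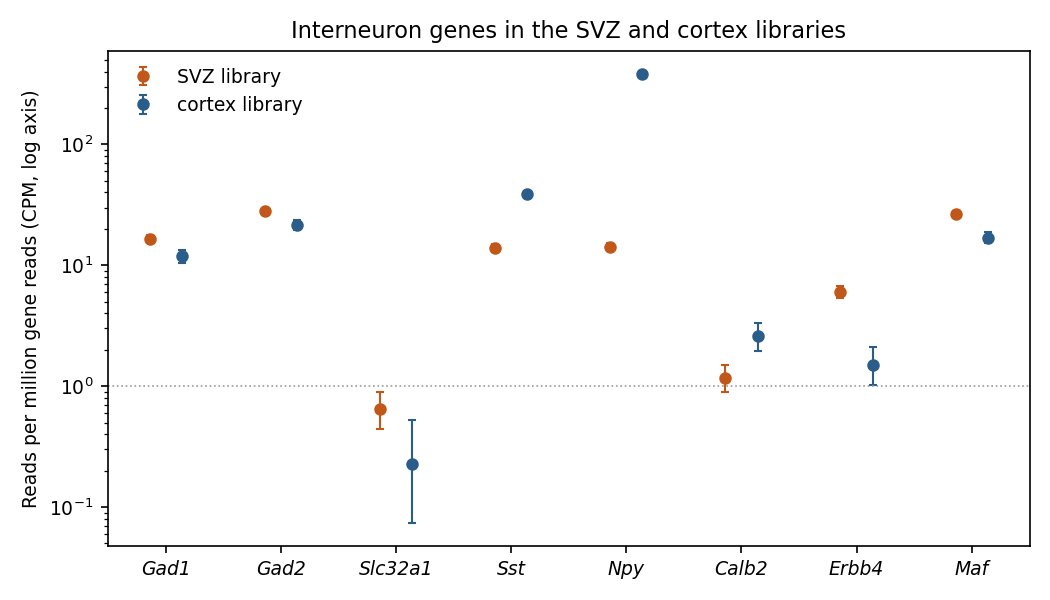
Level of each of the 8 genes in SVZ (orange) and cortex (blue), in CPM on a log axis, with exact 95% Poisson counting intervals; the dotted line marks 1 CPM, and each point is 1 library. Npy stands at 14.3 CPM in SVZ and 379 CPM in cortex, the Gad genes lie close together in both, and Slc32a1 lies under 1 CPM in both.

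The peptide and calcium-binding genes went the other way. Sst encodes somatostatin, an inhibitory peptide that marks a large class of interneurons from the medial ganglionic eminence. Sst (chromosome 16, 23889573 to 23890958, minus strand) had 712 reads in SVZ and 849 in cortex, or 13.8 CPM (12.8 to 14.9) and 38.5 CPM (36.0 to 41.2). Its log2 ratio was -1.48 (-1.62 to -1.33), a level 2.78-fold (2.51 to 3.08) higher in cortex.

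Npy encodes neuropeptide Y, which in the mature cortex is made by subsets of interneurons and often together with somatostatin. Npy (chromosome 6, 49822710 to 49829507, plus strand) had 733 reads in SVZ and 8355 in cortex. These are 14.3 CPM (13.2 to 15.3) and 379 CPM (371 to 387). The level was 26.6-fold (24.7 to 28.7) higher in cortex, a log2 ratio of -4.73 (-4.84 to -4.62). Npy reads were 80.2% (79.5 to 81.0) of the reads of all 8 genes there and 13.3% (12.4 to 14.2) in SVZ. Without Npy, the other genes of the set summed to nearly equal levels, 92.7 CPM in SVZ and 93.3 CPM in cortex.

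Calb2 encodes calretinin, a calcium-binding protein found in interneurons from the caudal ganglionic eminence and also in Cajal-Retzius cells. Calb2 (chromosome 8, 110137502 to 110168210, minus strand) was lowly read, with 60 reads in SVZ and 57 in cortex. Its levels were 1.17 CPM (0.890 to 1.50) and 2.58 CPM (1.96 to 3.35), and its log2 ratio was -1.15 (-1.70 to -0.60). A 2-fold difference lies within that interval. Of the markers of Cajal-Retzius cells, which share Calb2, 2 of 7 reached a mean of 1 CPM. Reln, the secreted protein of these cells and later of interneurons, was higher in cortex with 127 and 610 reads, and Nhlh2 had a log2 ratio of 0.09. Under that mean, Trp73 had 5 and 12 reads and Ebf3, on the SVZ side, 57 and 4, and the defining genes Lhx1 and Lhx5 were at 0 in both libraries. The summed level of this list was 15.3 CPM in SVZ and 39.6 CPM in cortex, of which Reln made up 2.47 and 27.7 CPM. The part of these cells in the Calb2 difference was not tested.

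**Figure D2:**
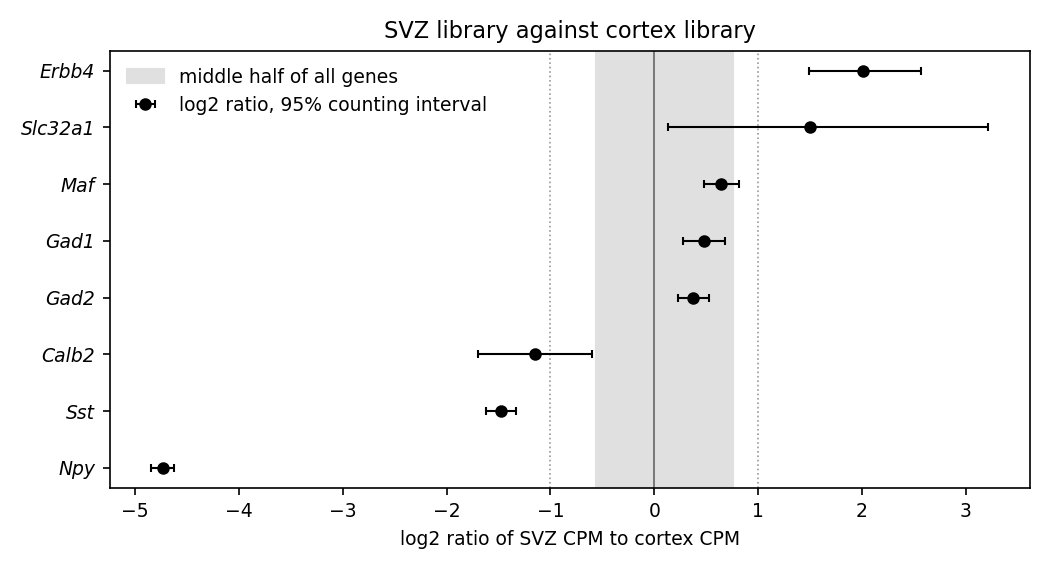
Log2 of SVZ CPM over cortex CPM for the 8 genes in order (points) with exact 95% counting intervals (bars); the grey band runs between the quartiles of 12738 genes, from -0.56 to 0.76, and dotted lines mark 2-fold. Npy at -4.73, Sst at -1.48 and Calb2 at -1.15 lie on the cortex side and Erbb4 at 2.01 on the SVZ side, while Gad1, Gad2 and Maf lie within the band.

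The migration receptor and the transcription factor were higher in SVZ. Erbb4 is a receptor tyrosine kinase for neuregulins that migrating interneurons use to find their way into the cortex. Erbb4 (chromosome 1, 68032186 to 69108059, minus strand) had 310 reads in SVZ and 33 in cortex, or 6.03 CPM (5.37 to 6.74) and 1.50 CPM (1.03 to 2.10). The level was 4.03-fold (2.81 to 5.96) higher in SVZ, a log2 ratio of 2.01 (1.49 to 2.57). With other library scalings the log2 ratio was 1.91 to 1.98, just under 4-fold. Neural progenitor genes lay on the same side, 12 of 12, beside 54.9% of all genes, with a median log2 ratio of 5.01. Eomes, among them, was at 0.0907 CPM in cortex and passed the minimum only through SVZ. The part of progenitors in the Erbb4 difference was not tested.

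Maf encodes a leucine-zipper factor that interneurons from the medial ganglionic eminence need for their subtype identity, and which macrophages also make. Maf (chromosome 8, 115682942 to 115707794, minus strand) had 1359 and 373 reads, or 26.4 CPM (25.0 to 27.9) in SVZ and 16.9 CPM (15.2 to 18.7) in cortex. Its log2 ratio of 0.64 (0.48 to 0.81) lay between the quartiles of all genes. Exons of Gm15655, a gene not listed in the counts, overlap 5.34% of the exon length of Maf. Microglia genes, another source of Maf, moved the same way: 12 of 12 were higher in SVZ, with a median log2 ratio of 3.26 and summed levels of 121 CPM and 33.9 CPM. Of these, Trem2 had 173 and 0 reads. The part of microglia in the Maf difference was not tested.

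Counted over the set, 7 of the 8 genes passed the minimum of 1 CPM. At least 2-fold higher in SVZ was 1 of the 7, Erbb4, beside 20.0% of all genes, and at least 2-fold higher in cortex were 3 of the 7, Npy, Sst and Calb2, beside 15.6%. At least 4-fold apart were Erbb4 on the SVZ side, where 10.2% of all genes lay, and Npy on the cortex side, where 7.01% lay. The counting interval left out equal CPM for 7 of the 7, as it did for 86.8% of all genes, so at this depth such an interval says little about these genes in particular. The median log2 ratio of the 7 was 0.38.

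Ratios between genes of the set within a library do not depend on library totals, and they were compared next. Reads of Gad1 and Gad2 together served as the measure of GABA-synthesis transcripts. For each of these reads there were 0.319 Npy reads in SVZ and 11.3 in cortex, 35.4-fold (31.6 to 39.6) more in cortex. Sst stood at 0.310 and 1.15 reads per Gad read, 3.70-fold (3.24 to 4.22) more in cortex. Calb2 was 2.95-fold (1.99 to 4.35) more in cortex on this scale. The peptide genes thus differed from the synthesis genes within the same libraries, and they also differed from each other, with 1.03 Npy reads per Sst read in SVZ and 9.84 in cortex.

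On the same scale Erbb4 was 3.03-fold (2.09 to 4.52) more in SVZ, with 0.135 and 0.0446 reads per Gad read. Maf stood close to the Gad genes, with 0.592 reads per Gad read in SVZ and 0.504 in cortex, 1.17-fold (1.02 to 1.36) more in SVZ. For Slc32a1 the difference was not detectable at this depth, at 2.13-fold (0.821 to 7.00) more in SVZ.

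**Figure D3:**
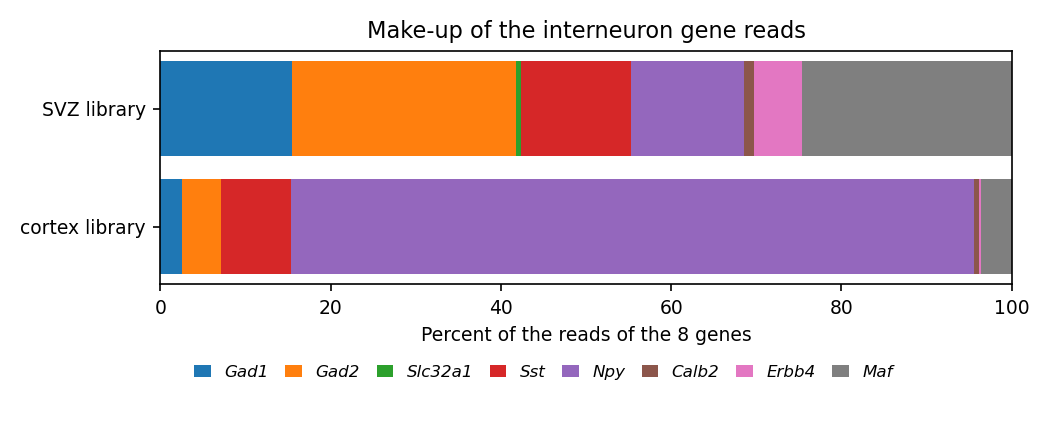
Share of each gene in the reads of the 8 genes together, as stacked bars from 0 to 100%, for SVZ (5503 reads) and cortex (10412 reads). Npy takes 80.2% of the cortex bar and 13.3% of the SVZ bar, in which Gad2 (26.2%) and Maf (24.7%) are the widest parts.

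Levels of different genes were compared per length, as reads per kilobase of the gene's joined exons per 1000000 gene reads (RPKM). In SVZ the order was Npy (25.2 RPKM), Sst (19.2), Gad2 (4.77), Maf (3.21), Gad1 (2.17), Calb2 (0.669), Erbb4 (0.488) and Slc32a1 (0.229). With this length the order in cortex was the same, from Npy (669 RPKM) and Sst (53.4) through Gad2 (3.68), Maf (2.05), Gad1 (1.56) and Calb2 (1.48) to Erbb4 (0.121) and Slc32a1 (0.0811). Calb2 and Erbb4 had overlapping counting intervals in SVZ, and their order there was not tested. In cortex the intervals also overlapped for Calb2 with both Gad1 and Maf, and for Erbb4 with Slc32a1, and these orders were not tested either. The places of Gad1, Gad2 and Maf depend on the length used. With the mean length of coding transcripts, Gad1 took the third place in both libraries, at 10.9 and 7.83 RPKM. Behind it, Maf (5.51 RPKM) stood above Gad2 (4.88) in SVZ and Gad2 (3.77) above Maf (3.53) in cortex, the latter within counting error. The peptide genes led under both lengths.

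The stranded columns were compared as a check on overlap with other counted genes. For all 8 genes the sum of the stranded columns equalled the unstranded count in both libraries. Gm14205 and Gm15655 are not listed in the counts, so this check cannot detect their overlap with Slc32a1 and Maf. Among the 6 genes with at least 50 reads in both libraries, the share of reads on a given strand lay between 45.6% and 60.0%, as in a library that keeps no strand.

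The other genes of interneurons were taken from lists. Of 6 genes for GABA uptake, breakdown and precursor supply, 3 were higher in each library, with a median log2 ratio of 0.26. Abat, the enzyme that breaks down GABA, was 6.69-fold higher in SVZ, with 921 and 59 reads. Slc38a1, a glutamine transporter, was 1.78-fold higher in cortex, with 13293 and 10166 reads. Slc6a11, a GABA uptake transporter (named after its values were seen), was higher in SVZ, with a log2 ratio of 1.67.

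Of 16 other peptide and subtype markers, 9 reached 1 CPM, 4 higher in SVZ and 5 in cortex. Their median was -0.0086, near the 0.11 of all genes. Cck, a peptide of interneurons and of some projection neurons, was 6.12-fold higher in cortex, with 56 and 147 reads. Crh, corticotropin-releasing hormone, had 160 reads in SVZ and 0 in cortex, 22.9-fold higher with the 0 set at a floor of 3 reads. Its log2 ratio was at least 4.20 by the exact interval. Nos1, nitric oxide synthase of long-range interneurons that also carry Sst and Npy, was the most counted, at 2659 and 1325 reads, for which the log2 ratio was -0.22 (-0.31 to -0.12). Vip, Pvalb, Crhbp, Th and Chat were at 0 reads in both libraries, where the floor of 3 reads stands for 0.0583 CPM in SVZ and 0.136 CPM in cortex.

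Ligands and receptors of migration were spread widely. Of 17 genes, 14 reached 1 CPM, 7 at least 2-fold higher in SVZ, beside 20.0% of all genes, and 5 at least 2-fold higher in cortex, beside 15.6%. Their median log2 ratio was 0.87. Hgf, Gfra1 and Nrp2 on the SVZ side, and Met, Nrg2 and Sema3f on the cortex side, were under 1 CPM in the other library. They passed the minimum only through the library where they were higher. Of these, Gfra1, Nrp2 and Sema3f were named after their values were seen. Nrp1, a semaphorin receptor, was the most counted, with 25874 and 3490 reads and a log2 ratio of 1.67. Hgf had 361 and 0 reads, 51.6-fold higher in SVZ with the 0 set at 3 reads. Its log2 ratio was at least 5.38 by the exact interval. The receptor for its product, Met, was 25.8-fold higher in cortex, with 19 and 210 reads. The neuregulin genes, ligands of Erbb4 (named after their values were seen), differed among themselves. Nrg1 had a log2 ratio of 1.12 with 828 and 163 reads, whereas Nrg2 had -3.22 with 12 and 48 reads and Nrg3 had -4.33 with 72 and 620 reads. Cxcl12, the chemokine that guides interneurons, was 9.03-fold higher in SVZ with 3287 and 156 reads, and its receptor gene Cxcr4 had 55 and 4 reads (both also named after their values were seen).

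Transcription factors of the interneuron lineage leaned to SVZ. Of 21, 18 reached 1 CPM, 13 higher in SVZ and 5 in cortex, where 54.9% of all genes were higher in SVZ. With some other library scalings 12 were higher in SVZ. At least 2-fold higher in SVZ were 8, beside 20.0% of all genes, and in cortex 1, beside 15.6%. The median log2 ratio of the 18 was 0.91. Gsx2, a factor of ventral progenitors, was 18.3-fold higher in SVZ, with 596 and 14 reads. Zeb2, which migrating interneurons and projection neurons express, was 3.85-fold higher in cortex, with 8935 and 14738 reads. Factors of postmitotic interneurons (named after their values were seen) differed in direction: the log2 ratio was -0.29 (-0.42 to -0.16) for Lhx6, read 1400 and 736 times, and 0.82 (0.62 to 1.02) for Dlx5. Lhx8 and Nkx2-1, factors of the medial ganglionic eminence, were at 0 reads in both libraries.

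Receptors for the peptides differed in direction. Of 8 genes, 4 reached 1 CPM. Sstr2, a somatostatin receptor, was 17.3-fold higher in SVZ, with 9579 and 238 reads, opposite to Sst. Npy1r, a neuropeptide Y receptor, was 59.1-fold higher in cortex, with 25 and 633 reads, on the side of Npy. Its log2 ratio was -5.88 (-6.52 to -5.31), and at 0.486 CPM in SVZ it passed the minimum only through cortex. The other neuropeptide Y receptors (named after their values were seen) were low, Npy5r with 0 and 39 reads and Npy2r with 37 and 0 reads. Of the other somatostatin receptors, Sstr1 had 385 and 74 reads and Sstr3 had 96 and 3, Sstr3 passing the minimum only through its SVZ level of 1.87 CPM (both named after their values were seen). The median log2 ratio of the 4 genes, 2.47, was 1.15 with a pseudocount of 1 CPM and -0.89 where a mean of 10 CPM was required, so it gives no stable direction for the list.

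**Figure D4:**
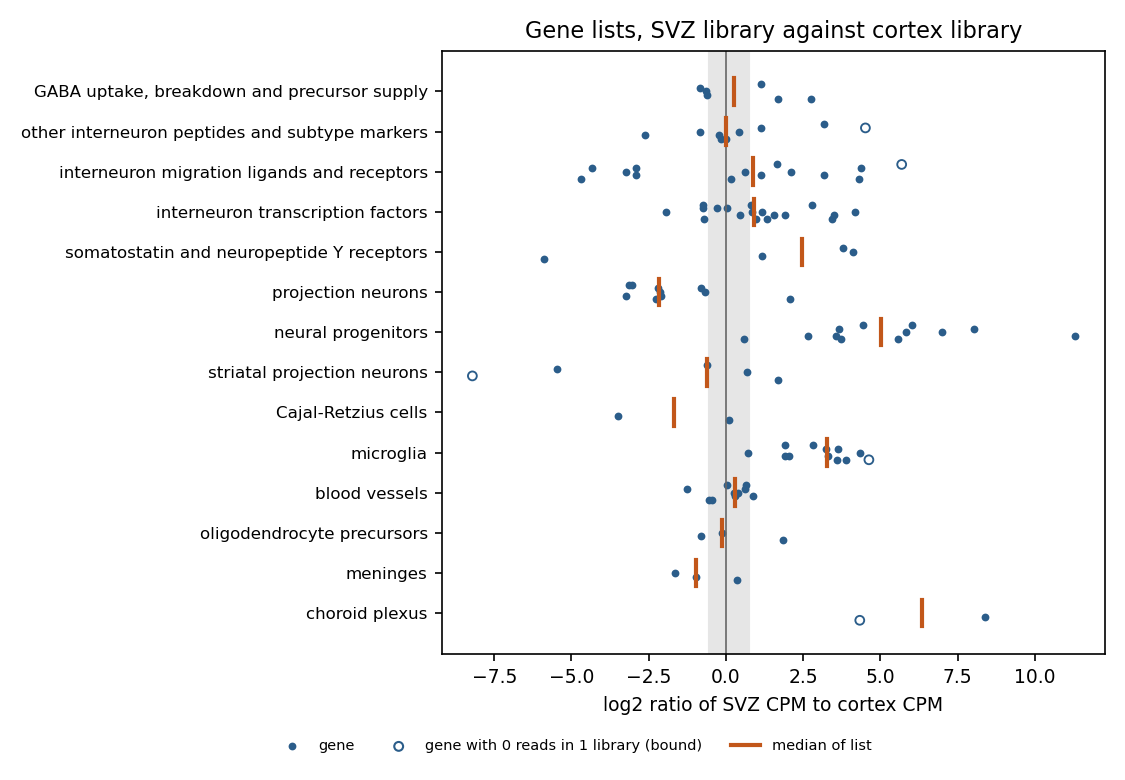
Log2 of SVZ CPM over cortex CPM for list genes that averaged at least 1 CPM (points; open circles are bounds for genes with 0 reads in 1 library), the median of each list (orange) and the range between the quartiles of all genes (grey). Lists of other interneuron genes have medians from -0.0086 to 0.91, beside 5.01 for neural progenitors and -2.18 for projection neurons. The list of peptide receptors has 2.47, which changes sign where a mean of 10 CPM is required.

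Since 2 libraries give a single ratio for each gene, likeness of pattern was taken as the distance in log2 ratio. The list genes nearest to 0.48, the median of Gad1, Gad2 and Slc32a1, were Sp9 (0.46), an interneuron transcription factor, Penk (0.41), the enkephalin precursor, and Esam (0.39), a blood vessel gene. Of all genes past the minimum, 838 lay as close, so this likeness singles out no gene. Blood vessel genes as a list had a median of 0.29, close to the Gad genes in ratio. Of the 10, 7 were higher in SVZ, beside 54.9% of all genes. The projection neuron genes that accompany Npy and Sst on the cortex side had a median of -2.18. Rorb was 8.75-fold higher in cortex and Neurod6, the most counted, 1.76-fold, while Slc17a6 was 4.26-fold higher in SVZ. The part of projection neurons in the Npy and Sst differences was not tested.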

How the data were processed

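Per the study's methods, adapters were removed with cutadapt (4.1), read 1 alone was mapped to mm10 (equal to GRCm38) with STAR (2.7.9a), and reads were counted by STAR. The files deposited give raw, unnormalized read counts for each gene, in 1 unstranded and 2 stranded columns. Reads mapping to several places or to more than 1 gene are left out of them. A merged table by the authors, with CPM, fold change and log10 change, was not used. Unstranded counts were divided by gene-assigned reads per library (CPM). Ratios carry no pseudocount, and a count of 0 was set at 3 reads. Intervals are Clopper-Pearson, Poisson or conditional odds ratio intervals at 95%. Genes averaging at least 1 CPM entered counts of 2-fold and 4-fold differences. The minimum is on the mean of both libraries, so a gene can pass it through 1 library alone. No test between areas was run. The members and lists were chosen with earlier results of these data known. Named are the members, the gene with the largest ratio in each direction and the most counted gene of each list, and the 3 list genes nearest in ratio to the GABA genes. A gene that this rule picks is not reported here. Genes named outside it, among them Nhlh2, Trp73, Ebf3, Sstr1, Sstr3, Isl1 and the genes given as at 0 in both libraries, were chosen after their values were seen. Gene positions, exon lengths and overlaps came from GENCODE M21, matched by symbol, and promoter windows from RefSeq. The alternatives were size factors from DESeq2 1.42.0, the TMM and upper-quartile methods of edgeR 4.0.16, library totals that omit the 10 most counted genes, sums of stranded counts, thinning of SVZ to the depth of cortex, adding 1 CPM to both, other thresholds and transcript lengths. The procedure was run on simulated Poisson counts with large planted changes in genes of at least 10 CPM. That run does not cover lower levels, calls near the 2-fold cut or PCR copies. Python 3.11.15 with pandas 2.3.3, scipy 1.17.1 and matplotlib 3.10.9, and R 4.3.3, ran these steps.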

Additional observations from a re-analysis of the deposited data

How the results depend on the processing

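No paired analysis was possible because SVZ and cortex have 1 library each, which also leaves no replicate to omit. The log2 ratios of the 8 genes kept their direction and stayed within their counting intervals in all 56 values under other scalings, stranded sums, thinning and a pseudocount, with Slc32a1 moving most (0.42 with a pseudocount of 1 CPM) and Npy between -4.83 and -4.64. All 36 shares recomputed from stranded sums or the thinned library stayed within their intervals, but most of them could not move. Stranded sums equal the unstranded counts for all 8 genes, and thinning leaves cortex unchanged. Only the shares in the thinned SVZ library could differ, and that library is a random part of the same reads. Of the 8 genes, the number reaching 2-fold on the SVZ side, 1, was 2 with no minimum, which admits Slc32a1, and 0 where a mean of 10 CPM was required, which removes Erbb4. The count on the cortex side, 3, was 1 at 4-fold, and 2 with a pseudocount of 1 CPM, where a mean of 10 CPM was required (which removes Calb2), or where the whole interval had to pass 2-fold. Of 124 list medians recomputed, 4 changed sign: GABA uptake, breakdown and precursor supply to -0.62 and the peptide receptors to -0.89 where a mean of 10 CPM was required, other peptides and subtype markers to 0.031 with the thinned SVZ library, and striatal projection neurons to 0.68 with no minimum. A further 15 moved without changing sign. The minimums change which genes enter. Of 16 levels per length, 8 moved with the mean coding transcript length. The precision of Slc32a1, Calb2 and Erbb4 is limited by 5, 57 and 33 cortex reads.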

Other observations

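Genes of other cells that an area next to the ventral forebrain or the ventricle can hold were also read. Of 10 genes of striatal projection neurons, which like interneurons use GABA, 5 reached 1 CPM, 2 higher in SVZ and 3 in cortex, with a median log2 ratio of -0.62. Ppp1r1b, a dopamine-regulated phosphatase inhibitor, had 118 reads in SVZ and 2215 in cortex. Drd1, a dopamine receptor gene, had 0 and 380 reads, 295-fold higher in cortex with the 0 set at a floor of 3 reads. The end of its exact interval nearer to equality was a log2 ratio of -7.90. Adora2a had 106 and 14 reads. The defining gene Drd2 was at 0 reads in both libraries, and Isl1 had 23 and 0 reads.

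Choroid plexus genes were found almost entirely in SVZ, with 12703 reads there and 20 in cortex over 6 genes. Ttr, the transthyretin gene, accounted for 12363 and 16 of them. Of 5 oligodendrocyte precursor genes, 3 reached 1 CPM and their median was -0.13. Cspg4 had 143 and 17 reads, Olig1 had 93 and 69, and Pdgfra, the most counted, had a log2 ratio of -0.13 (-0.43 to 0.16). Meningeal genes were low in both libraries, with summed levels of 4.20 CPM in SVZ and 5.85 CPM in cortex. Dcn had 62 and 52 reads and Lum 30 and 40, log2 ratios of -0.97 and -1.64. In the blood vessel list, Cldn5 had a log2 ratio of 0.87, Rgs5 of 0.61 and Flt1 of -1.26. Among progenitor genes, Eomes had 11659 and 2 reads and Fabp7, the most counted, 255784 and 861.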
